A study of Mus musculus with 6 samples.

Results

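Naive CD4 T cells of mouse tumors were examined after injections of PBS, mono-IL10 or IL10/2-Trikine. They were taken as the 98 cells that the authors' annotation names naive_CD4T (73 cells) or naive_T (25 cells), out of 2084 annotated T and NK cells. CD45+ cells had been enriched from subcutaneous 6694c2vTRP1 tumors, a pancreatic ductal adenocarcinoma line, in male and female C57BL/6 mice, and profiled by droplet-based 5′ single-cell RNA sequencing. Mono-IL10, a monomeric IL-10, was injected into the peritoneum at 26 µg per mouse. IL10/2-Trikine, an engineered cytokine that signals like IL-10 and also through IL2Rβ, was injected at 30.6 µg per mouse. Each was given on alternate days in 2 doses, the earlier one on day 8, and tumors were harvested on day 14. Each treatment formed 1 library, so treatment and library cannot be told apart; within a library, 5 hashtag antibodies named the mice, which are the replicates here. The ages of these mice and the number of PBS mice were not stated for this experiment in the sources used here, and the PBS library carried 5 hashtags like the others.

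The members came from the 3 treatments unequally, with 35 cells from PBS, 61 from mono-IL10 and 2 from IL10/2-Trikine. A mouse could be named for 54 of them, while the other 44 were hashtag Negative, meaning that no hashtag rose above its background. The libraries held 44412, 30528 and 55504 barcodes with 515236552, 458860129 and 364814102 gene UMIs (unique molecular identifiers, each counting 1 captured transcript), in the order PBS, mono-IL10 and IL10/2-Trikine. The members were shallow, with a median of 2280 UMIs per cell against 3148.5 in all other annotated cells. Between 408 and 700 barcodes were shared by each pair of libraries, no member barcode was a member in 2 libraries, and 4 mono-IL10 members had a barcode that also occurred in the IL10/2-Trikine library.

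A naive T cell has left the thymus but has not met its antigen. It circulates through lymph nodes, which it enters with the chemokine receptor CCR7 and leaves through the lipid receptor S1PR1, and it is kept quiescent by IL-7 signaling and by transcription factors such as TCF1 (Tcf7), LEF1, KLF2, FOXO1 and BACH2. CD4 and CD8 are the coreceptors that bind MHC class II and class I, and a mature conventional T cell usually carries one of them. Naive cells are usually scarce in tumors, where most T cells have already been activated.

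The labelled identity held only in part. The coreceptor gene Cd4 gave a UMI in 15 of the 98 cells (15.3%, exact 95% binomial interval 8.83% to 24.0%), whereas Cd8a or Cd8b1 gave one in 32 cells (32.7%, 23.5% to 42.9%). No cell carried both, and 51 carried neither. In clusters that should lack these genes the shares were low at higher or like depth: Cd4 was found in 0.5% of 200 naive_CD8T cells (median 3048 UMIs) and Cd8a or Cd8b1 in 3.94% of 127 Treg cells (median 2421 UMIs). Both shares in the members lay above these levels. Cells labelled act_CD4T also carried CD8 transcripts, in 55 of 172 cells (32.0%). All intervals given here cover counting error only. Detection of the 2 coreceptors was unequal where they belong. Cd4 was found in 32.3% of Treg and 51.7% of act_CD4T cells, and Cd8a or Cd8b1 in 90.5% of naive_CD8T cells. The 2 shares in the members therefore do not give the numbers of CD4 and CD8 cells. Because transcripts of both coreceptors were found among the members, the cells are called naive_CD4T and naive_T cells below, by their annotation.

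The naive_CD4T cells fell into 2 of the authors' clusters, which differed in Cd4. Cluster 5 (46 cells) held 13 cells with a Cd4 UMI, 15 with a CD8 UMI and 18 with neither. Cluster 9 (27 cells) held 2 with Cd4, 9 with CD8 and 16 with neither. The pooled level of Cd4 was 1.85 UMIs per 10,000 (exact 95% Poisson interval 1.16 to 2.80) in cluster 5 and 0.318 (0.0385 to 1.15) in cluster 9, against 3.93 in act_CD4T and 1.61 in Treg. Cd40lg, the helper ligand of CD4 T cells, was found in 10 of 46 cells of cluster 5 and in 0 of 27 cells of cluster 9. Since these clusters were drawn from the expression of all genes, differences between them are given as descriptions without a test.

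Among naive_CD4T cells, chemokine and migration genes differed with the coreceptor. In the 24 cells with a CD8 UMI, Ccl5, a chemokine of memory and cytotoxic T cells, was found in 21 cells at 154 UMIs per 10,000 (144 to 164), and S1pr1 stood at 1.29 (0.557 to 2.54). In the 15 cells with a Cd4 UMI, Ccl5 was found in 6 cells at 22.8 (18.3 to 28.1), and S1pr1 stood at 4.87 (2.93 to 7.60). The 34 cells with neither lay near the latter, with Ccl5 at 28.5 (24.9 to 32.4) and S1pr1 at 3.34 (2.20 to 4.87). Il7r, the IL-7 receptor alpha chain, followed S1pr1, at 12.6 (9.28 to 16.6) with Cd4, 7.68 (5.89 to 9.84) with neither and 2.91 (1.72 to 4.59) with CD8. These are pooled cells of a few mice, not replicates, and the coreceptor is mixed with library and mouse. Of the cells with a CD8 UMI, 13 of 15 in cluster 5 and 7 of 9 in cluster 9 came from mono-IL10. In mono-IL10 mouse 4, 14 of 17 members carried a CD8 UMI, and its members held 588 Ccl5 UMIs. In the PBS cells of cluster 9, Ccl5 was found in 13 of 16 cells, of which 2 carried CD8.

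**Figure D1:**
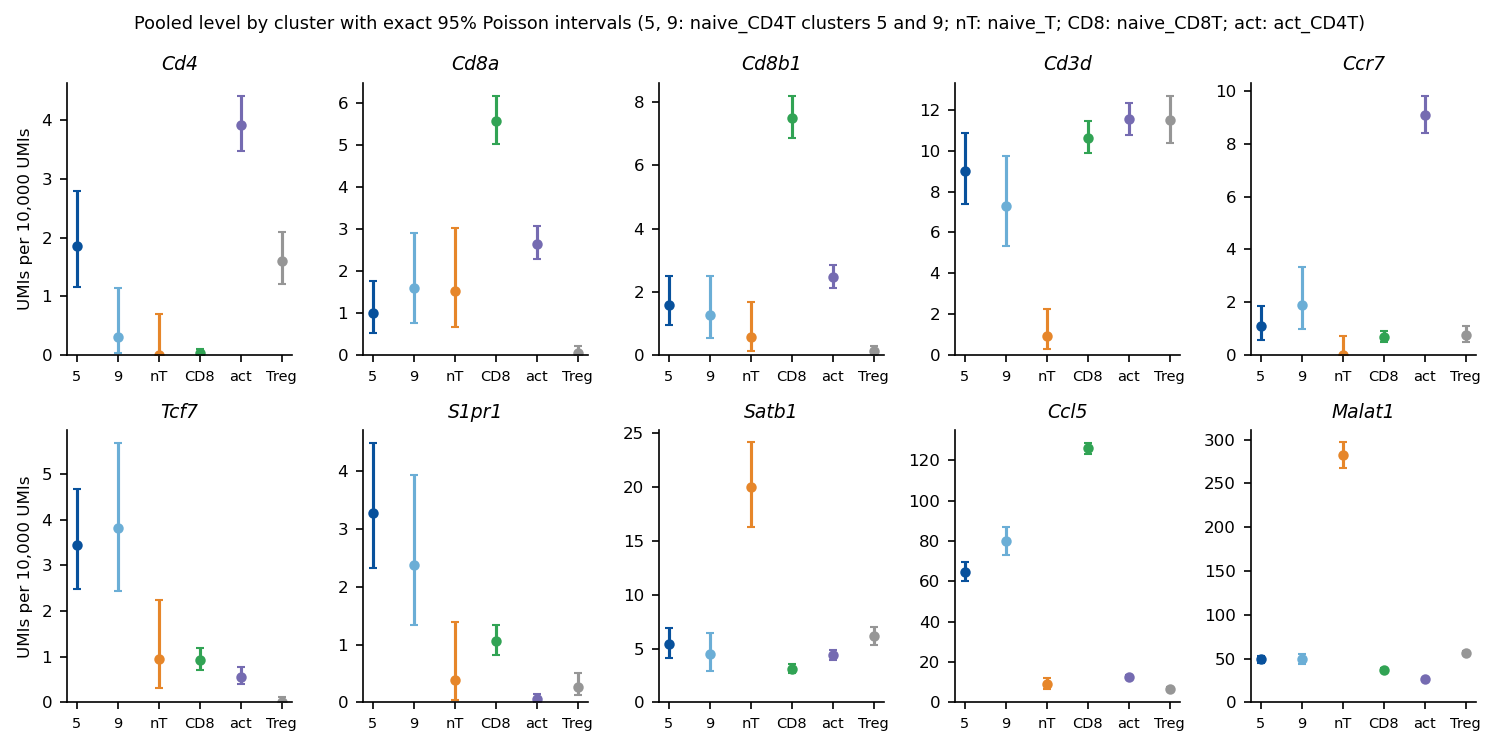
Pooled levels of 10 genes (UMIs per 10,000 UMIs, vertical axes from 0) in the 3 clusters of the members and in naive_CD8T, act_CD4T and Treg, with exact 95% Poisson intervals that cover counting error only. Tcf7 and S1pr1 stood highest in naive_CD4T clusters 5 and 9, Ccr7 in act_CD4T, and Malat1 and Satb1 in naive_T.

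Of the 3 markers, Tcf7 carried the naive_CD4T label best. Tcf7 was found in 39 of 73 naive_CD4T cells at 3.58 UMIs per 10,000 (2.76 to 4.56), against 0.935 in naive_CD8T, 0.563 in act_CD4T and 0 of 127 cells in Treg (up to 0.0895). Ccr7 was found in 16 of 73 cells at 1.38 (0.890 to 2.03), which was above the 0.678 of naive_CD8T but below the 9.08 of act_CD4T. NK cells, which are not T cells, also held Tcf7 in 23.9% of 795 cells, so this gene does not mark naive T cells alone.

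The 20 genes that stood highest in naive_CD4T cells relative to the highest of naive_CD8T, act_CD4T and Treg included 3 of the 17 naive and quiescence genes. These were Tcf7 (3.83 times the highest of the others), S1pr1 (2.82 times) and Klf2 (1.90 times), which drives S1pr1. The other leading genes are not in that list. Taf4b, a subunit of the general transcription factor TFIID, led with 1.54 UMIs per 10,000 and a ratio of 4.30. Slamf6, a receptor of the SLAM family, reached 3.38 times, Fbxw7, a substrate receptor of a ubiquitin ligase, 2.52 times and Orai2, a calcium channel subunit, 2.01 times. For all 98 cells together, Taf4b, Fbxw7 and Slamf6 led with ratios of 4.66, 3.43 and 3.26. These ratios are descriptions of clusters drawn from the same genes.

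Genes of experience with antigen were present beside the naive genes. In naive_CD4T cells, Crip1, a small LIM protein, was found in 65 of 73 cells at 19.5 UMIs per 10,000, Lgals1, which encodes galectin-1, in 45 at 6.27, Icos, a costimulatory receptor induced on activation, in 46 at 8.75, and Cd44, which rises on activation, in 27 at 3.08. Nkg7, a gene of cytotoxic granules, was found in 43 cells at 9.68, against 23.2 in naive_CD8T and 7.43 in Treg. Gzmb, a cytotoxic protease, stood at 3.30 against 13.2 in naive_CD8T and 22.4 in Treg. Foxp3, the transcription factor of regulatory T cells, was found in 0 of the 98 members, which allows a level of up to 0.128 UMIs per 10,000 against 5.61 in Treg, and Mki67, a marker of dividing cells, in 0 of 73 naive_CD4T cells.

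Summed over whole lists, the naive_CD4T cells stood above naive_CD8T, act_CD4T and Treg in naive genes, and in activation genes above naive_CD8T and below act_CD4T and Treg. The 17 naive and quiescence genes summed to 54.5 UMIs per 10,000 in naive_CD4T, against 30.4 in naive_CD8T, 35.8 in act_CD4T and 35.6 in Treg. The 18 activation and memory genes summed to 60.0, against 45.6, 113 and 226 in the same order. The 6 regulatory T cell genes summed to 5.83 against 81.2 in Treg, and the 15 genes of the T cell receptor complex and its proximal signaling to 59.6 against 66.3 in naive_CD8T and 63.8 in act_CD4T. Cytokine receptors and STAT feedback genes, the list closest to the drugs, summed to 43.0. Within it the IL-10 receptor chain Il10ra was found in 4 of 73 cells at 0.330 (0.121 to 0.719), the IL-2 receptor beta chain Il2rb in 45 at 4.35 (3.44 to 5.42) and the high-affinity IL-2 receptor chain Il2ra in 3 at 0.165 (0.0340 to 0.482). Most markers of other cells were low: macrophage transcripts summed to 7.92 with Csf1r at 0, NK transcripts to 2.48 with Ncr1 at 0, tumor epithelial transcripts to 0.660 and B cell transcripts to 1.05, with Cd79a, which marks B cells, and Fscn1, which marks mature dendritic cells, at 0 in all 98 members. The mature dendritic cell list summed to 70.9, of which 69.9 was Ccl5, a gene that T cells also express, and 0.715 was Cd74.

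The 25 naive_T cells went against their label in part. Their naive and quiescence genes summed to 69.1 UMIs per 10,000, against 54.5 in naive_CD4T and 30.4 in naive_CD8T, with Satb1 and Foxo1 among the high ones. Ribosomal protein genes took 303 UMIs per 10,000 in naive_T, against 2715 in naive_CD4T and 2798 in naive_CD8T, which leaves more of the total for all other genes. The sums were not computed without ribosomal UMIs, so they do not show more naive transcripts in naive_T. Cd4 and Ccr7 were found in none of them, which allows a level of up to 0.575 UMIs per 10,000, and S1pr1 in 1 cell and Tcf7 in 4. Transcripts of the T cell receptor complex were low as well, with Cd3d at 0.959 (0.311 to 2.24) against 8.42 in naive_CD4T and Trac at 0.767 (0.209 to 1.96) against 5.39. Malat1, a nuclear noncoding RNA, stood at 282 (268 to 297) against 49.4, together with Satb1, a chromatin organizer, at 19.9 against 5.06, Foxo1 at 12.7 against 3.03, and Rptor, a subunit of mTOR complex 1, at 6.91 against at most 0.704 in naive_CD8T, act_CD4T and Treg.

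Library measures set the naive_T cells apart too. Ribosomal protein genes took a median of 1.36% of the UMIs of a naive_T cell, against 26.1% in cluster 5 and 25.4% in cluster 9, and the highest naive_T cell reached 19.1%. Malat1 alone took a median of 2.69%, against 0.438% and 0.343%. The hashtag antibodies gave a median of 634 UMIs, against 1285.5 and 1195, and 19 of 25 naive_T cells were hashtag Negative (76%), against 25 of 73 naive_CD4T cells. The median depth was 1839 UMIs and 1113 genes, close above the 1000 genes that the authors required. The part of RNA quality in the naive_T profile was not tested, and each share below is also given for naive_CD4T alone where it changes a call.

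**Figure D2:**
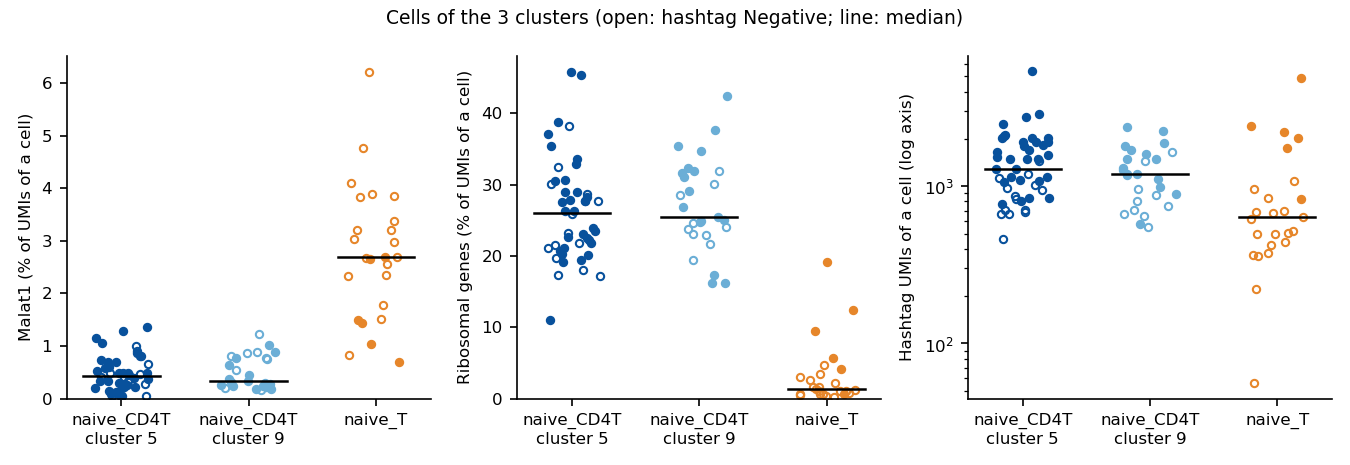
Each point is 1 of the 98 cells, by cluster, with the percentage of its UMIs from Malat1, the percentage from cytosolic ribosomal protein genes and its hashtag UMIs on a log axis. Open points are hashtag Negative cells and lines are medians; naive_T had a median of 2.69% Malat1, 1.36% ribosomal UMIs and 634 hashtag UMIs.

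The T cell receptor variable genes, left out of the authors' clustering of T cells, were diverse in the members, and similarly so in act_CD4T and Treg. A leading Trbv gene, the variable segment of the beta chain, could be read in 29 of 98 cells, in which 12 of 35 Trbv genes led at least 1 cell. Trbv13-2 and Trbv29 led in 5 cells each, Trbv3 in 4, and Trbv19 and Trbv20 in 3 each. Of all pairs of these cells, 8.37% shared the leading Trbv, against 13.3% among 82 naive_CD8T cells, 7.24% among 88 act_CD4T cells and 9.80% among 34 Treg cells. In naive_CD8T, Trbv19 led in 22 of the 82 cells. For the alpha chain, 12 members had a leading Trav gene, from 11 genes, and Trav3-3 led in 2 of them. Only 1 mouse, mono-IL10 mouse 4, had at least 3 cells with a Trbv among both members and Treg, so sharing within mice was not tested; there, 13.3% of the member pairs and 0% of the Treg pairs shared a Trbv.

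The treatments were compared by the share of naive_CD4T and naive_T cells in each mouse. In PBS, these cells made up 10%, 3.12%, 7.04%, 5.36% and 2.44% of annotated T and NK cells in mice 1 to 5, from 41 to 112 cells per mouse. In mono-IL10, they made up 3.41%, 5.22%, 0%, 7.91% and 5.32%. In all 5 IL10/2-Trikine mice, 0 of 46 to 134 cells per mouse were members, which allows up to 2.24% in mouse 2, with the most cells, and up to 6.52% in mouse 3, with the fewest. No IL10/2-Trikine mouse thus overlapped a PBS mouse, whereas mono-IL10 mouse 3, with 35 cells, was also at 0.

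The mean share was 5.59% ± 3.07 (SD, n = 5) in PBS, 4.37% ± 2.92 with mono-IL10 and 0% with IL10/2-Trikine. IL10/2-Trikine was lower than PBS in an exact two-sided permutation test over mice (p = 0.00794, the smallest that 5 mice against 5 can give, adjusted p = 0.0238 over 3 comparisons). Against mono-IL10 the difference did not pass (exact permutation p = 0.0476, adjusted p = 0.0714), and without mono-IL10 mouse 3 it did (adjusted p = 0.0119). Mono-IL10 and PBS differed by less than the spread between mice (difference of -1.22 percentage points, exact permutation p = 0.556), and leaving out 1 mouse moved the difference between -2.11 (without mono-IL10 mouse 4) and -0.120 (without PBS mouse 1). With cluster 5 alone, which holds most of the Cd4 UMIs, the difference between IL10/2-Trikine and PBS missed the threshold (exact permutation adjusted p = 0.0714). Fewer naive cells and more of the other T and NK cells cannot be told apart in a share.

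Other denominators kept the order against IL10/2-Trikine. With 0 members in each of its mice by the deposited calls, that order could not reverse, so these tests are no separate support. Of annotated CD4 T cells (members, act_CD4T, Treg and Cycling_Treg), the members made up 18.8% ± 10.0 (SD, n = 5) in PBS, 17.0% ± 11.3 with mono-IL10 and 0% with IL10/2-Trikine (exact permutation p = 0.00794 for IL10/2-Trikine against PBS, adjusted p = 0.0238). The IL10/2-Trikine mice held 3 to 18 such cells each, and with a minimum of 10 cells the adjusted p was 0.0536. Of all barcodes of a mouse with at least 1000 genes and at most 10% mitochondrial UMIs, the members made up 0.0848% ± 0.0481 in PBS, 0.187% ± 0.180 with mono-IL10 and 0.00451% ± 0.0101 with IL10/2-Trikine (n = 5 mice each, exact permutation p = 0.00794 against PBS, adjusted p = 0.0238). With this denominator mono-IL10 lay above PBS, and that difference did not pass (p = 0.302, exact permutation test).

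**Figure D3:**
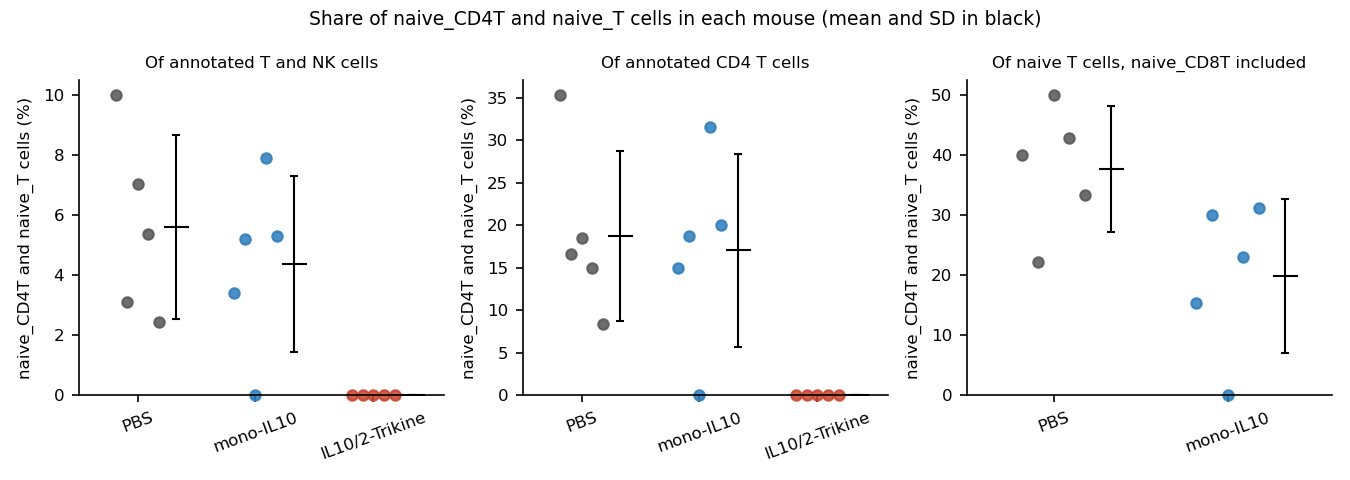
Each point is 1 mouse and gives the percentage of naive_CD4T and naive_T cells among annotated T and NK cells, among annotated CD4 T cells and among naive T cells with naive_CD8T included, with mean and SD in black. The 5 IL10/2-Trikine mice sit at 0 in the first and second panels, and the third compares mono-IL10 with PBS.

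By the deposited hashtag calls, both IL10/2-Trikine members were Negative, and 1 of them entered the share of all barcodes above, through the calls made again. Of all 725 annotated cells of that library, 2 were members (0.276%, exact 95% interval 0.0334% to 0.993%), against 35 of 516 in PBS (6.78%, 4.77% to 9.31%) and 61 of 843 in mono-IL10 (7.24%, 5.58% to 9.20%). The first of the 2, a naive_T cell with 1463 UMIs, held no UMI of Cd3e, Cd3d, Cd3g, Trac, Cd4, Ccr7 or Tcf7. The second, a cluster 5 cell with 1994 UMIs, held 2 UMIs each of Cd3d, Tcf7, Lef1 and S1pr1, and none of Cd4, Cd8a or Cd8b1. The naive_CD8T cells were as few there, at 2 of 725, against 38 of 516 in PBS and 160 of 843 in mono-IL10.

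Among naive T cells, the members took a smaller share in mono-IL10 than in PBS. The members made up 40%, 22.2%, 50%, 42.9% and 33.3% of naive T cells (members plus naive_CD8T) in PBS mice 1 to 5, from 3 to 15 cells per mouse, and 15.4%, 30%, 0%, 23.0% and 31.2% in mono-IL10, from 6 to 74 cells. The groups overlapped, since mono-IL10 mice 2, 4 and 5 lay above PBS mouse 2. The mean was 37.7% ± 10.5 (SD, n = 5) in PBS and 19.9% ± 12.8 in mono-IL10 (difference of -17.8 percentage points, exact two-sided permutation p = 0.0397). The call was lost on leaving out any PBS mouse but mouse 2 or mono-IL10 mouse 1, 3 or 4 (p = 0.0556 to 0.0952, exact permutation), at cells with at least 2000 UMIs (p = 0.0873) and with the hashtag calls made again (p = 0.0714). With cluster 5 alone the difference was -1.88 percentage points (p = 0.833, exact permutation test). Over whole libraries, hashtag Negative cells included, the members were 6.78% of annotated cells in PBS and 7.24% in mono-IL10, while naive_CD8T, the rest of this denominator, was 7.36% and 19.0%.

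Mono-IL10 mouse 4 held 14 of the 32 members with a CD8 UMI; 28 of the 32 were in mono-IL10, some of them hashtag Negative. In that mouse, which held 17 of the 34 mono-IL10 members with a mouse, 14 of 17 members carried a Cd8a or Cd8b1 UMI and 0 carried Cd4. In mono-IL10 mice 1, 2 and 5 the counts were 3 of 6, 1 of 6 and 1 of 5, and in PBS mice 1, 3 and 4 they were 1 of 6, 1 of 5 and 2 of 6. The mean share over these mice was 42.3% ± 30.6 (SD, n = 4) in mono-IL10 and 23.3% ± 8.82 (n = 3) in PBS, a difference within the spread between mice (exact permutation p = 0.457, a comparison chosen after these counts were seen). The difference of 18.9 percentage points became 5.56 without mono-IL10 mouse 4 and 6.81 with cells thinned to 1500 UMIs. Counted without the cells that carry a CD8 UMI, the share of annotated cells was 4.62% ± 2.39 (SD) for PBS mice, 2.34% ± 1.90 for mono-IL10 mice and 0% for IL10/2-Trikine mice (n = 5 each, exact permutation adjusted p = 0.0238 for IL10/2-Trikine against PBS).

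A further count used transcripts in place of clusters and had no minimum of genes, with mice from the hashtag calls made again. Barcodes were called T barcodes with at least 2 UMIs of Cd3e, Cd3d, Cd3g, Trac, Trbc1 and Trbc2 and at most 1% macrophage and tumor UMIs. They were called naive CD4 barcodes if they also carried Cd4 and at least 1 of 3 naive T cell genes. None of Foxp3, Cd8a, Cd8b1, Ncr1, Klrb1c and Mki67 was allowed in these. Both names stand for the gates only: the T gate also took NK cells, and most annotated naive CD4 barcodes were act_CD4T, as given below. The naive CD4 share was 4.65%, 4.51%, 5.15%, 4.16% and 3.51% of T barcodes in PBS mice 1 to 5, then 3.90%, 3.82%, 1.35%, 2.31% and 2.60% in mono-IL10 and 1.75%, 1.03%, 1.85%, 0.870% and 2.20% in IL10/2-Trikine. Every IL10/2-Trikine mouse lay below every PBS mouse, and mono-IL10 overlapped both.

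The mean gated share was 4.40% ± 0.611 (SD, n = 5) in PBS, 2.80% ± 1.08 with mono-IL10 and 1.54% ± 0.567 with IL10/2-Trikine. By exact two-sided permutation tests over mice, the share was lower in IL10/2-Trikine than in PBS (p = 0.00794, adjusted p = 0.0238) and lower in mono-IL10 than in PBS (p = 0.0317, adjusted p = 0.0476), and IL10/2-Trikine against mono-IL10 did not pass (p = 0.0556, adjusted p = 0.0556). The call for mono-IL10 was lost on leaving out PBS mouse 1, 2, 3 or 4 or mono-IL10 mouse 3, 4 or 5 (exact permutation adjusted p = 0.0556 to 0.0635), with at least 1000 genes (0.0595) and with at least 2 of the naive genes (0.563). The call for IL10/2-Trikine against PBS was lost with at least 2 of the naive genes (exact permutation adjusted p = 0.0714) and without the Cd4 requirement (0.119). With every barcode thinned to 1500 UMIs, the means were 3.15%, 1.49% and 0.895%, and no comparison passed (exact permutation adjusted p = 0.214 for IL10/2-Trikine against PBS and 0.286 for mono-IL10 against PBS). Without the Cd4 requirement, IL10/2-Trikine, at 12.3%, lay above mono-IL10, at 8.94%, and below PBS, at 15.9%.

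The gate and the annotation picked mostly different barcodes. Of the 98 gated naive CD4 barcodes in PBS, 24 were annotated T or NK cells and 2 were members; in mono-IL10 the counts were 81, 37 and 9, and in IL10/2-Trikine 40, 5 and 0. Most of the annotated ones were act_CD4T (20, 27 and 5). The T gate also took 82 annotated NK and 3 Cycling_NK barcodes in PBS, 147 and 9 in mono-IL10, and 149 and 18 in IL10/2-Trikine. Barcodes outside the annotation made up 2052 of 2459 gated T barcodes in PBS, 1965 of 2674 in mono-IL10 and 2622 of 2997 in IL10/2-Trikine. The part of NK cells in the gated shares was not tested. The gated T barcodes were deep, with medians of 5362, 6571 and 3479 UMIs, and what the barcodes outside the annotation are was not tested. Among gated T barcodes with fewer than 1000 genes, which the annotation could not hold, naive CD4 barcodes were 13 of 389 in PBS (3.34%), 6 of 233 in mono-IL10 (2.58%) and 11 of 900 in IL10/2-Trikine (1.22%).

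**Figure D4:**
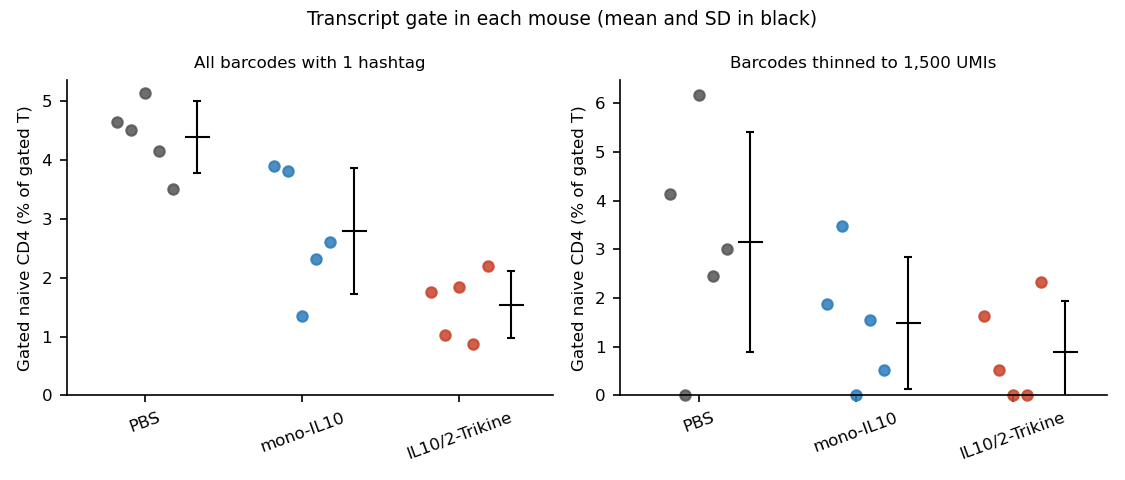
Each point is 1 mouse and gives transcript-gated naive CD4 barcodes as a percentage of gated T barcodes, from all UMIs and after thinning each barcode to 1,500 UMIs, with mean and SD in black. The names stand for the gates only, since most annotated naive CD4 barcodes were act_CD4T and the T gate also took NK cells. The order PBS, mono-IL10, IL10/2-Trikine of the means (4.40%, 2.80% and 1.54%) was kept after thinning (3.15%, 1.49% and 0.895%) with wider spread.

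Expression within the members was compared between mono-IL10 and PBS over the mice with at least 3 members, which were PBS mice 1, 3 and 4 and mono-IL10 mice 1, 2, 4 and 5, with 5 to 17 cells and 10857 to 44051 summed UMIs each. No IL10/2-Trikine mouse qualified. The median depth per cell was 2277 ± 197 UMIs (SD, n = 3) in PBS and 2368 ± 243 (n = 4) in mono-IL10, which did not differ beyond the spread (exact permutation p = 0.657). Of 887 genes with enough counts, 0 passed edgeR's quasi-likelihood test at a Benjamini-Hochberg adjusted p of 0.05 (background 0%), with 31 at an unadjusted p under 0.05, and DESeq2 also called 0, with 13. Every mono-IL10 mouse lay above every PBS mouse for 19 genes (2.14%) and below for 31 (3.49%).

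The genes with the smallest unadjusted p in each direction, 4 higher and 5 lower, are given as not passing (edgeR adjusted p = 0.997 for each). Higher in mono-IL10 were Scml4 at a log2 fold change of 2.56 ± 0.92 (SE), Wasf2, an actin regulator, at 2.47 ± 0.93, Trbc1, a T cell receptor beta constant segment, at 2.14 ± 0.83, and Rabgap1l at 1.59 ± 0.63. Lower were Apoe, an abundant macrophage transcript, at -2.08 ± 0.62, the RNA-binding protein gene Hnrnpa2b1 at -1.59 ± 0.52, the phosphatase gene Dusp2 at -1.62 ± 0.56, Ctla2a at -1.62 ± 0.58 and Snu13 at -1.99 ± 0.78. Without PBS mouse 4, Ctla2a was at -0.18, Trbc1 at 5.73 and Rabgap1l at 3.25, none past the test.

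Values by mouse show how thin these differences are. Scml4 stood at 0.693, 0.921 and 0 UMIs per 10,000 in PBS mice 1, 3 and 4 and at 3.78, 4.41, 1.59 and 5.28 in mono-IL10 mice 1, 2, 4 and 5. Apoe stood at 4.85, 4.61 and 7.22 in PBS and at 0.755, 3.15, 0.681 and 0.879 in mono-IL10. The groups did not overlap for either gene, but both were picked for their small p in these data. Over all 887 genes, 2.14% lay above without overlap and 3.49% below. The 10 macrophage transcripts, Apoe included, summed to 11.1 to 15.9 UMIs per 10,000 in PBS mice and 6.30 to 9.67 in mono-IL10 mice. These sums did not overlap, while those of every other list did. They hold Apoe, picked for its small p in these data, and were not computed without it. From 4 to 7 of the 10 were detected in a mouse, and their part in the gene values was not tested.

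No naive gene passed the test between mono-IL10 and PBS. Of the 17 naive and quiescence genes, 11 were tested, 5 lay above and 6 below 0 and none passed, with a median log2 fold change of -0.01 against 0.02 over all 887 genes. Tcf7 stood at 2.08, 11.1 and 7.22 UMIs per 10,000 in PBS and at 3.78, 4.41, 1.14 and 3.52 in mono-IL10, overlapping at PBS mouse 1, with a log2 fold change of -1.16 ± 0.57 (unadjusted p = 0.0498, edgeR adjusted p = 0.997). Bach2 was at -0.78 ± 0.56, Satb1 at 0.34 and Il7r at 0.61. Cd4 and Ccr7 had too few counts to be tested. Over all members of a library, Cd4 stood at 0.882 (0.355 to 1.82) in PBS and 1.13 (0.656 to 1.80) in mono-IL10. Ccr7 stood at 1.76 (0.965 to 2.96) in PBS and 0.728 (0.364 to 1.30) in mono-IL10. Cells of 1 library are not replicates.

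**Figure D5:**
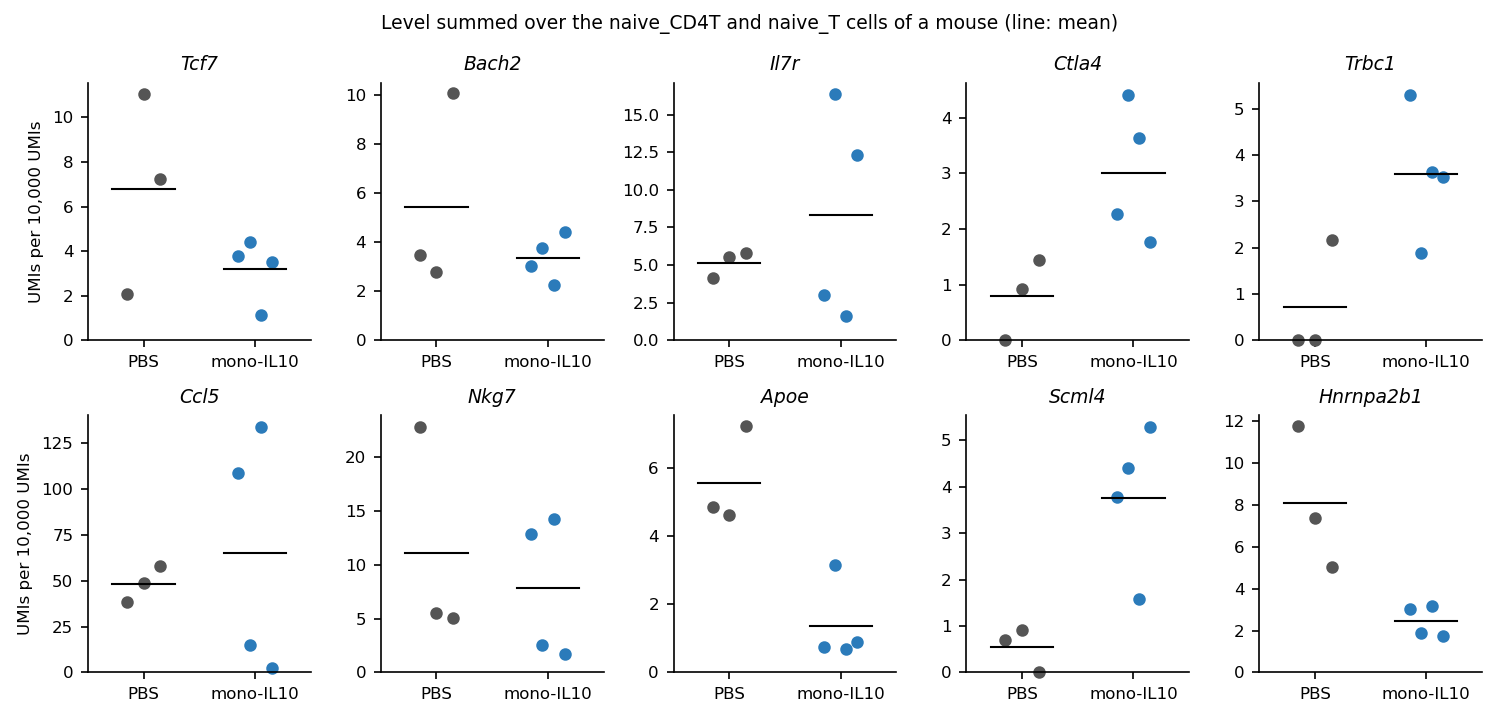
Levels of 10 genes (UMIs per 10,000 UMIs) summed over the naive_CD4T and naive_T cells of each mouse with at least 3 of them, 3 PBS and 4 mono-IL10 mice, with means as lines. The groups do not overlap for Ctla4, Apoe, Scml4 and Hnrnpa2b1, of which the last 3 were picked for their small p in these data. Over all 887 genes, 2.14% lay above without overlap and 3.49% below. Ccl5 spreads most within mono-IL10, and no gene passed the test over 887 genes.

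No gene of the other lists passed the test either. Of 15 genes of the T cell receptor complex and proximal signaling, 12 were tested, 4 lay above and 8 below 0, and none passed (median log2 fold change of -0.17). Of 18 activation and memory genes, 7 were tested with a median of 0.23 and none passed. Among them Ctla4, an inhibitory receptor that is also in the regulatory T cell list, was higher in every mono-IL10 mouse, at 1.76 to 4.41 against 0 to 1.44 (log2 fold change of 1.99 ± 0.83, unadjusted p = 0.0207, edgeR adjusted p = 0.997). Of all 887 genes, 2.14% lay above without overlap and 3.49% below. Among those below were Apoe and Runx3, the 1 gene of the CD8 lineage list that was tested.

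Genes of cytokine signaling and response were few among those tested, in a contrast of mono-IL10 with PBS that holds no IL10/2-Trikine mouse. Of 20 cytokine receptor and STAT feedback genes, 8 were tested, 4 lay on each side of 0 and none passed (median -0.14), with Stat3, the main transducer of IL-10 signals, at 0.45 and Jak1 at -0.58. Of 10 genes of the STAT5 target list that the study used, 5 were tested and none passed (median 0.04), and of 18 interferon-stimulated genes 3 were tested, all above 0, and none passed (median 0.74). Ccl5 stood at 38.1, 48.8 and 57.7 UMIs per 10,000 in PBS and at 109, 15.1, 133 and 2.64 in mono-IL10 mice 1, 2, 4 and 5. The highest mono-IL10 value was that of mouse 4, whose members carried CD8 transcripts, and the groups overlapped (log2 fold change of 0.48, unadjusted p = 0.300, edgeR adjusted p = 0.997).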

How the data were processed

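The authors deposited UMI counts per gene and barcode for 3 gene expression libraries, hashtag counts for the same barcodes, and a cell table with clusters, hashtag calls, total counts and the percent of mitochondrial reads. Per the file headers and the study's methods, the counts were made with Cell Ranger on the mouse genome build GRCm39. The authors had kept cells with at least 1000 genes and at most 10% mitochondrial reads in Seurat 5.1.0 (submitters' notes), integrated them with Harmony and left T cell receptor and immunoglobulin variable genes out of the T cell clustering. The deposited table held hashtag singlets and Negative cells and no hashtag doublets, and no doublet caller was run here. The table also lists 7858 cells of 1 group with no sample here; these were not used.

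From the deposited counts, levels were pooled as UMIs per 10,000 and the mouse was taken from the table's hashtag call; HTODemux (Seurat 5.3.0), run again on all barcodes, gave the same call in 97.1% to 98.6% of annotated cells. Shares were compared by exact permutation tests over mice with Benjamini-Hochberg adjustment. Counts summed per mouse (at least 3 members) were tested with edgeR 4.0.16 (TMM, filterByExpr with a minimum count of 3 and a minimum total of 10), with DESeq2 1.42.0 as alternative. The gene test was tested on simulated data. Genes named are Cd4, Ccr7 and Tcf7, the 4 highest of each list in the members, the 5 smallest p in each direction, the 20 leading genes by ratio and leading T cell receptor genes; others, such as Il10ra, Il2rb, Foxp3, Cd44 and Rptor, were chosen after their values were seen. The members and lists were chosen with earlier results of these data known. Some genes that this rule names are not reported here. Both treated groups share the PBS mice. Mice are named by hashtag number, which pairs no mice across libraries.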

Additional observations from a re-analysis of the deposited data

Results flagged for a closer look

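With the hashtag calls made again and all barcodes past the filters as denominator, IL10/2-Trikine mouse 5 held members at 0.0226% of its barcodes, 1 of 4433, and the other 4 mice held none. The gap was the whole range of the group. The cell is 1 of the 2 hashtag Negative members of that library, which the second call gave to mouse 5. The gap equals the whole range whenever 1 mouse of a group holds the only such cell, and 19 groups of mice were examined.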

How the results depend on the processing

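The lower share in IL10/2-Trikine than in PBS kept its direction under every alternative run. For shares of members by the deposited calls it could not turn, since no IL10/2-Trikine mouse held a member. Differences are in percentage points unless said otherwise, and the cause of each change was not tested. With cluster 5 alone, chosen after seeing the data, IL10/2-Trikine minus PBS was -2.62 of annotated cells and -8.66 of CD4 T cells and missed the threshold, while mono-IL10 minus PBS turned to 0.368 and 2.94, and the fraction of naive T cells to -1.88. Over all barcodes past the filters mono-IL10 minus PBS turned to 0.102. With at least 10 CD4 T cells a mouse, IL10/2-Trikine minus PBS stayed at -18.8 from 3 mice and missed the threshold, and mono-IL10 minus PBS turned to 2.55. The fraction of naive T cells missed it at 2000 UMIs (-15.2) and with new hashtag calls (-16.3).

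In the transcript gate, IL10/2-Trikine minus PBS missed the threshold with 2 of the 3 naive genes (-0.572), without the Cd4 requirement (-3.58) and after thinning (-2.25). IL10/2-Trikine minus mono-IL10 turned to 3.35 without the Cd4 requirement and passed at -1.02 with at most 5% macrophage and tumor UMIs. Mono-IL10 minus PBS missed it with at least 1000 genes (-1.62), with 2 naive genes (-0.205) and after thinning (-1.66).

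Leaving out 1 mouse at a time, IL10/2-Trikine minus mono-IL10 ranged from -5.46 to -3.49 of annotated cells, from -21.3 to -13.4 of CD4 T cells and from -1.62 to -0.982 in the gate, and passed in each only without mono-IL10 mouse 3 (exact permutation adjusted p = 0.0119). Mono-IL10 minus PBS ranged from -2.11 to -0.120 of annotated cells, from -5.33 to 2.55 of CD4 T cells (above 0 without PBS mouse 1 or mono-IL10 mouse 3), from -21.6 to -12.8 in the fraction of naive T cells and from -1.87 to -1.24 in the gate, which missed the threshold without 7 of the 10 mice. The median depth difference ranged from -13.7 to 186 UMIs.

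For the gene values, all 13 alternatives called 0 genes. Of the 38 named genes, 16 changed sign in some fit, all short of the threshold. Without 1 mouse, log2 fold changes ranged from -1.10 to 0.087 for Bach2, -1.15 to 0.083 for Ikzf2, -0.18 to 0.87 for Ccl5, -0.10 to 1.09 for Il7r, -0.74 to 0.083 for Lgals1, -1.09 to 1.06 for Bcl2, -0.70 to 0.25 for Cd28, -0.97 to 0.74 for Nkg7, -0.20 to 1.78 for Icos, -0.70 to 0.0054 for Cd3g, -0.23 to 0.60 for Rora, -0.58 to 0.21 for Tox, -0.087 to 0.78 for Ifi203, -0.68 to 0.11 for Cd3d, -0.29 to 0.27 for Hmgb2 and -0.35 to 0.38 for Crip1. In naive_CD4T alone Rora was -0.10, Cd3d 0.011 and Hmgb2 0.069. With no filter beyond 1 UMI Cd3d was 0.0058 and Hmgb2 0.047, and with mice of at least 2 members Crip1 was -0.37. Trbv sharing within mice has no value under any alternative, since at most 1 mouse qualified. No paired analysis was possible because mouse numbers only name hashtags within a library.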

Other observations

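These comparisons rest on few cells. The members are 98 shallow cells, 44 with no mouse, and most mice held 6 or fewer, so a single cell moves a share visibly and absence of a UMI does not show absence of expression. Each treatment is 1 library, and library and treatment cannot be told apart. Annotation was made on cells integrated across treatments, and the naive_T cells carry few T cell receptor transcripts.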
